A study of Mus musculus with 4 samples.

Results

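The 47 genes described here carry out DNA replication and drive the cell division cycle. They were taken by name from a list and sorted by role into 21 replication genes, 12 cyclins and cyclin-dependent kinases (CDKs), 7 genes of the E2F and RB families and 7 mitotic genes. All 47 were found among the 21883 protein-coding genes placed on the chromosomes. Inside them or within 10 kb of them lay 212 of the 91858 accessible regions of the dataset, and no region was counted under more than 1 of the genes. A region is the stretch formed where peaks from any of the libraries overlapped by at least 1 bp. A gene-end region is one within 1 kb of either annotated end of a gene.

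Open chromatin was mapped by ATAC-seq, in which a transposase cuts and tags accessible DNA, in macrophages grown from mouse bone marrow for 7 to 10 days with medium from L929 cells as a source of growth factor. Knockout (KO) macrophages carried Ezh2fl/fl;LysM-Cre+/-, so that Cre made from the lysozyme M locus of myeloid cells removes the floxed part of Ezh2, and wild-type (WT) macrophages came from littermates whose alleles the labels do not list. Both genotypes had spent 24 hours in medium conditioned by Hepa1-6 mouse liver cancer cells, so this exposure is shared by every value below. There were 2 libraries per genotype, and the labels do not say whether they came from separate mice or cultures, so spreads between them may be technical. With 2 libraries against 2, an exact two-sided permutation test cannot give a p below 0.333, and single values are therefore given library by library.

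The peak lists held between 67055 and 72887 peaks, and because they carry no read counts the sequencing depth is unknown. At Ezh2, the region over the higher-coordinate gene end was covered over 1378 and 1408 bp in the WT libraries and 1350 and 1351 bp in the KO libraries. A smaller region inside the gene, at chr6:47532495-47532897, was covered over 403 and 372 bp in WT and 106 and 182 bp in KO. Neither can check the deletion, since the deleted exons were not located here. All 10 macrophage markers, among them Spi1, Csf1r and Adgre1, had a gene-end region in each library. Of 16 markers of other cells, 3 did (S100a8, Col1a1 and Klf1), and 11 had none in any library, including the T cell gene Cd3e and the fetal liver gene Afp. In bulk material such as this, fewer accessible cells and less accessibility per cell cannot be told apart.

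Cells prepare for division by loading the MCM helicase onto origins, with ORC, CDC6 and CDT1 as loaders, and fire those origins in S phase. D-type cyclins with CDK4 or CDK6 phosphorylate RB, which frees E2F factors to switch on replication genes, while many mitotic genes are controlled through a promoter element named CHR (cell cycle genes homology region) together with CCAAT boxes bound by NF-Y. Macrophages grown from marrow divide in response to colony-stimulating factor and slow down as they mature or are activated.

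RefSeq promoter sequences of build GRCm38.p6, the assembly behind mm10, run from 250 bases before to 50 bases after an annotated start and matched 36 of the 47 genes. Both strands were searched for E2F sites spelled TTTCCCGC, TTTCGCGC, TTTGCCGC or TTTGGCGC, for the CHR spelled TTTGAA, and for CCAAT. The sequences below show the 200 bases before the start, 5′ to 3′ on the gene's strand, with these letters in capitals on whichever strand they lie. E2F sites on opposite strands can overlap one another, as they do in Mcm6. Mcm6 and Rfc3 stand for replication genes with E2F letters and Cdk1 and Cdc20 for mitotic control with CHR letters. E2f3 carries both kinds, while Rrm1 and E2f2 are the genes whose gene-end regions ranked highest and lowest among the 44 where that region was called in all 4 libraries.
Mcm6, chr1:128359706-128359905, minus strand: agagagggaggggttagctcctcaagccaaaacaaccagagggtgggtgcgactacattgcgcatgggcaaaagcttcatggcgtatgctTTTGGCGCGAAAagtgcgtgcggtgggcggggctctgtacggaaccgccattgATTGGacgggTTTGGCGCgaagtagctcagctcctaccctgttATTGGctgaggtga
Rfc3, chr5:151651209-151651408, minus strand: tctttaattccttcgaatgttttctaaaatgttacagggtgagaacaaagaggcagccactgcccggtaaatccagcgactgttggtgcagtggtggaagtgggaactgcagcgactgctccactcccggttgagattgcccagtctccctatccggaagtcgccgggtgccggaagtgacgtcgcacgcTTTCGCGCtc
Rrm1, chr7:102441495-102441694, plus strand: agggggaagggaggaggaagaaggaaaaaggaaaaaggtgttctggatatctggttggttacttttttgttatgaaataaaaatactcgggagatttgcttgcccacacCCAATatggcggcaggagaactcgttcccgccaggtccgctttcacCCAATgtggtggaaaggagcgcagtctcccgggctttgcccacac
Cdk1, chr10:69352913-69353112, minus strand: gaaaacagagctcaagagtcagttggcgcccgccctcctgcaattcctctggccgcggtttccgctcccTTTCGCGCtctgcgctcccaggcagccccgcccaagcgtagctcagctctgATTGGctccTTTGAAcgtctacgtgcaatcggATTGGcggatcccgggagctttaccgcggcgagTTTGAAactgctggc
Cdc20, chr4:118437344-118437543, minus strand: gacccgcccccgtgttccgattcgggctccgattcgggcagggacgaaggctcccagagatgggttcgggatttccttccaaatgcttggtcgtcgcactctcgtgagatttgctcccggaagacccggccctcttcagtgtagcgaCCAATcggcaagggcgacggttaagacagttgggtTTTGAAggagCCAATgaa
E2f3, chr13:29986064-29986263, minus strand: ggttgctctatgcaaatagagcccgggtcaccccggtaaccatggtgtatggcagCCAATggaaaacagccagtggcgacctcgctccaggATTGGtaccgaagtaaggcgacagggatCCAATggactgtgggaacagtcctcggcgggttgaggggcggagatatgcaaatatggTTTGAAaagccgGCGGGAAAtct
E2f2, chr4:136172074-136172273, plus strand: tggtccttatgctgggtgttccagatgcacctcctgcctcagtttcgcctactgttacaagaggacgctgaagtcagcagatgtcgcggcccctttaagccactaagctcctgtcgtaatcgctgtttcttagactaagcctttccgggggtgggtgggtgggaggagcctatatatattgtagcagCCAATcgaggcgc

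The letters differed in frequency between the roles. E2F letters stood in the promoters of 9 of 17 replication genes (Cdc6, Cdt1, Mcm3, Mcm5, Mcm6, Mcm7, Orc1, Pola1 and Rfc3), 3 of 5 E2F and RB genes, 2 of 8 cyclins and CDKs (Cdk1 and Cdk2) and 0 of 6 mitotic genes. Over all 17491 protein-coding genes with a promoter in the table the share was 3.29%, and over the 9250 whose promoter touched a region called in all 4 libraries it was 4.95%. CHR letters stood in 5 of 6 mitotic genes (Aurka, Cdc20, Mki67, Plk1 and Top2a), 3 of 5 E2F and RB genes (E2f2, E2f3 and E2f8), 2 of 8 cyclins and CDKs (Ccnb2 and Cdk1) and 1 of 17 replication genes (Mcm2), against 18.5% of all genes and 12.4% of those with an accessible promoter. CCAAT stood in the promoters of 28 of the 36 genes, against 42.3% of all genes, and each of the 11 genes with CHR letters also held CCAAT. In Cdk1 the E2F letters ran from -131 to -124 and CHR letters from -71 to -66 and again from -15 to -10 relative to the start. A gene was counted if any of its annotated promoters held the letters. E2f2 held TTTGGCGC past the start, from 40 to 47, and CHR letters only at a start further inside the gene, so neither is in the sequence printed. Promoters of the cycle genes were also rich in CG, with a median of 24 CG dinucleotides per 300 bases, against 13 over all promoters and 22 over accessible ones. These are matches of letters and not measured sites of binding, and no test was made on the list.

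Nearly every one of the 47 genes was open at an end in both genotypes. A gene-end region was called in each of the 4 libraries for 45 genes, or 95.7%, where the background over all protein-coding genes, silent ones included, was 54.7%. The count was 20 of 21 for replication, 11 of 12 for cyclins and CDKs, and complete for the E2F and RB genes and the mitotic genes, at 7 each. By library it was 45 genes in WT replicate 1 and 46 in each of the others, so the genotypes overlapped. For 44 of the 45 it was the same region in every library. Of the 36 genes with an annotated start, 36 had a region within 1 kb of a start in every library, and in 32 of the 35 whose widest gene-end region was called throughout, the start lay inside that region. Those 32 regions reached a median of 431 bp upstream and 407 bp downstream of the start. Neither count was made over all genes. By promoter, 38 of the 41 of these genes touched a region called in all 4 libraries, or 92.7%, against 50.6% of all 21262 protein-coding promoters.

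The exceptions were Orc1 and Ccnd2, which were not among the 45, and Ccnd1, which was counted through different regions in different libraries. Orc1, the largest subunit of the origin recognition complex, had no region at the annotated ends, but its start in the promoter table lies further inside the gene, under a region of 762 bp at chr4:108579071-108579832. This region also lay within 1 kb of an end of Prpf38a. That region ranked at percentiles 97.99 and 95.02 in the WT lists and 91.9 and 92.4 in the KO lists. A percentile here is the place of a peak among all peaks of its own list by the authors' fold enrichment, with 100 as the strongest. Ccnd1 and Ccnd2, which encode cyclins D1 and D2, had no gene-end region shared by all 4 libraries. At Ccnd1 a 199 bp region at the higher-coordinate end appeared in the first WT and the second KO list, at percentiles 2.46 and 2.37. Another of 135 bp, 464 bp outside that end, appeared in the other 2 lists, at 0.458 and 0.409. At Ccnd2 the gene-end calls in WT replicate 2, KO replicate 1 and KO replicate 2 stood at percentiles 0.642, 0.822 and 2.49. WT replicate 1 had none. The calls that placed Ccnd1 among the 45 genes were therefore among the weakest of each list. The gene-end calls of Ccnd2 were as weak, and Ccnd2 was not among the 45.

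**Figure D1:**
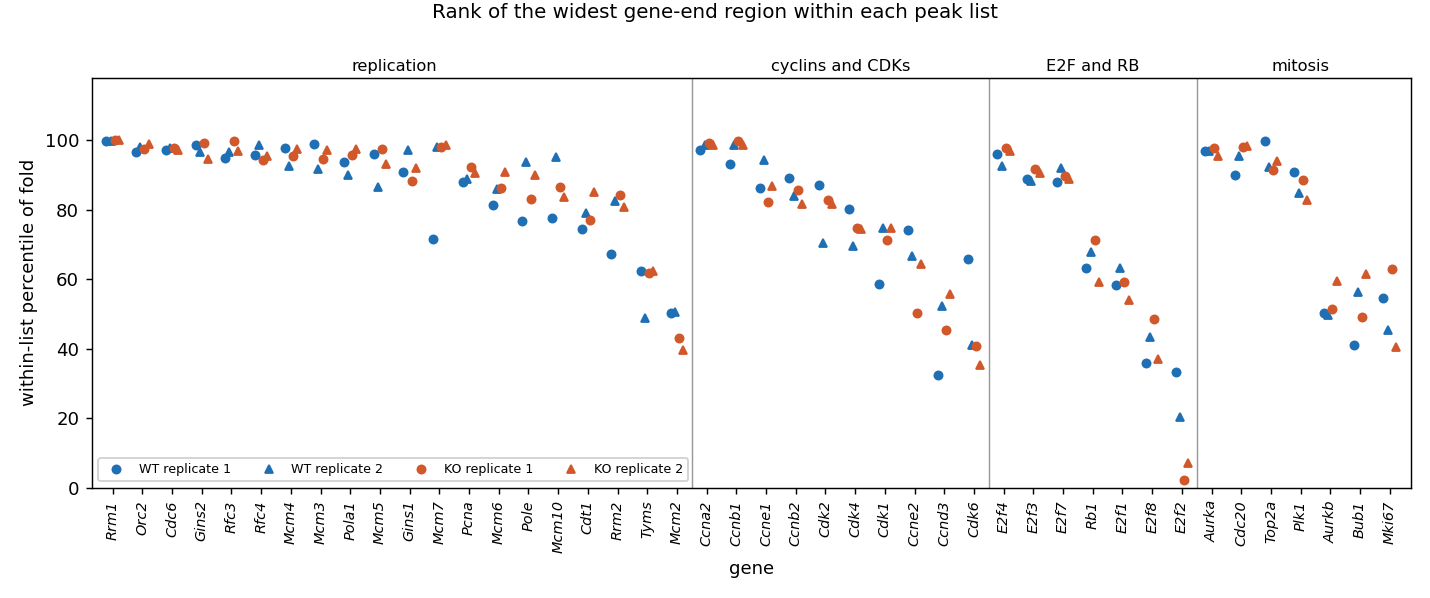
Within-list percentile of fold (vertical axis, 0 to 100) of the widest gene-end region of each of the 44 genes where that region was called in all 4 libraries, grouped by role and ordered by mean. Points are single libraries, blue for WT and orange for KO, with circles for replicate 1 and triangles for replicate 2. Replication genes from Rrm1 to Gins1 lie above 86, while E2f2 lies below 34 in all 4 lists.

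By role, replication genes had the highest median rank at gene ends. Their median percentile was 92.3 and 93.1 in the WT lists and 94.5 and 93.9 in the KO lists. Cyclins, CDKs and mitotic genes together stood at 86.2 and 74.6 in WT and at 82.3 and 81.5 in KO. Replication genes were ahead in each of the 4 lists, by 12.3 ± 5.03 percentile points on average (SD over 4 libraries). This difference was not matched for width, and ranks by width are given below. E2F and RB genes had the lowest median, 65.3 by mean over libraries, beside 76.0 for the 11950 protein-coding genes with such a region. A mean percentile above 90 was found for 12 of 20 replication genes, 2 of 10 cyclins and CDKs, 3 of 7 mitotic genes and 1 of 7 E2F and RB genes, against 23.2% of those 11950 genes. The 13 genes with E2F letters had a median of 89.8 and the 22 without them one of 85.4, and both sets spanned most of the range. Genes are not replicates of a condition, so these differences between roles are given without a test.

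Within replication, the helicase and its loaders had a median of 92.7 and the synthesis genes Pcna, Pola1, Pole, Rfc3 and Rfc4 one of 94.2. Rrm1, the large subunit of ribonucleotide reductase, had the highest rank of the 44 genes, at 99.9 and 99.8 in WT and 99.9 and 99.9 in KO. Its peak was also the narrowest of the replication genes, covering 286 and 366 bp in WT and 301 and 318 bp in KO. Rrm2, the small subunit of the same enzyme, stood at 67.3 and 82.5 in WT and 84.2 and 80.8 in KO, and Tyms, thymidylate synthase, at 62.2 and 48.7 in WT and 61.8 and 62.2 in KO. Genes of nucleotide supply thus ranged from the top to the middle of the lists.

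The MCM genes encode the helicase ring and its partner Mcm10. Of the 7, Mcm2 alone had a mean percentile under 80, with 50.2 and 50.4 in WT and 43.1 and 39.6 in KO. Mcm3 lay at 99.0 and 91.7 in WT and 94.7 and 97.2 in KO, and Mcm4 at 97.8 and 92.4 in WT and 95.5 and 97.4 in KO. Mcm4 had the widest gene-end region of the replication genes, 955 and 1031 bp in WT and 1062 and 943 bp in KO, and it shares this end with Prkdc, which encodes the catalytic subunit of DNA-dependent protein kinase. Cdt1 covered 855 and 973 bp in WT and 1009 and 936 bp in KO. Orc2 was next to Rrm1 among replication genes, at 96.7 and 97.9 in WT and 97.6 and 98.8 in KO. In all, 8 of the 44 regions also lay within 1 kb of the end of another protein-coding gene, or 18.2%, against 27.6% of the 11950. Besides Mcm4 these were at Mcm7 (Ap4m1), Pcna (Cds2), Pole (Pxmp2), Ccna2 (Bbs7), Ccnd3 (Bysl), E2f4 (Exoc3l) and Aurka (Cstf1).

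**Figure D2:**
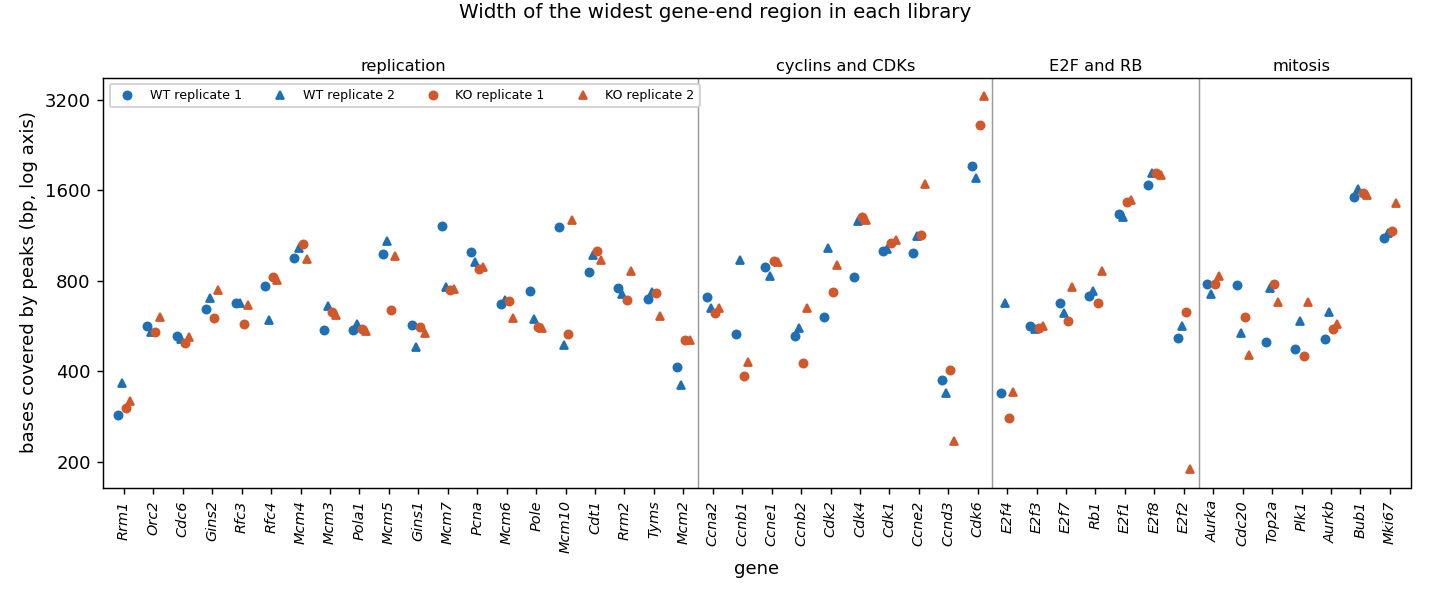
Bases covered by peaks (vertical axis, log scale, bp) in the widest gene-end region of the same 44 genes, in the same order and with the same symbols. Widths run from a mean of 318 bp at Rrm1 to 2407 bp at Cdk6, and for most genes the WT and KO points interleave.

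Replication genes had narrower gene-end regions than the cyclins, CDKs and mitotic genes. Medians were 686 and 667 bp in the WT libraries and 615 and 640 bp in the KO libraries, against 774 and 830 bp in WT and 783 and 828 bp in KO. On the log2 scale the difference of medians was -0.30 ± 0.09 (SD over 4 libraries) and had the same sign in each. In the broad peak layout fold is averaged over a peak, and ranks are therefore also given by width. Whether width accounts for rank was not tested. Between 1000 and 3000 bp lay 0 replication genes, and the 8 cycle genes there had a median percentile of 55.4. Of these, 6 cyclin, CDK and mitotic genes stood at 57.9 and 2 E2F and RB genes at 49.9. All 2719 genes of that width stood at 66.0. Between 500 and 700 bp, 10 replication genes stood at 94.9 and 7 cyclin, CDK and mitotic genes at 94.3, where all 2926 genes of that width stood at 84.5. Between 700 and 1000 bp the medians were 90.7 for 8 replication genes and 87.4 for 3 cyclin, CDK and mitotic genes, and Rb1, the one E2F and RB gene there, stood at 65.3. All 3930 genes of that width stood at 83.95. Between 300 and 500 bp, 2 replication genes had a median of 72.9, 2 E2F and RB genes one of 55.7, and Ccnd3 stood at 46.5. All 1644 genes of that width stood at 67.9, so the narrowest regions ranked low as well. The gap between replication genes and the cyclin, CDK and mitotic genes thus varied with the width compared, and some of these sets hold 1 to 3 genes.

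Among the cyclins, Ccna2 (cyclin A2, of S phase and early mitosis) had the highest rank, at 97.1 and 98.5 in WT and 99.0 and 98.7 in KO. This region lay 554 bp from the annotated end of Ccna2 and also within 1 kb of an end of Bbs7. Ccnb1 (cyclin B1, the partner of Cdk1 in mitosis) followed at 93.1 and 98.6 in WT and 99.6 and 98.6 in KO. Ccnb2 had a region of 525 and 558 bp in WT and 425 and 650 bp in KO. Ccne2, a G1/S cyclin, had one of 992 and 1126 bp in WT and 1140 and 1682 bp in KO, at percentiles from 50.2 to 74.1. Away from their ends these 4 cyclin genes had 0 or 1 region each that was called in every library.

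Cdk6 and the D-type cyclins had more regions than most of the other genes, or weak gene ends. Cdk6 had the widest gene-end region of the 47 genes, with 1928 and 1766 bp in WT and 2638 and 3295 bp in KO, and ranked from 35.2 to 65.8. It also had the most regions, 23, of which 15 were shared by the 4 libraries and 14 of those lay inside the gene away from its ends. Pola1, the catalytic subunit of DNA polymerase alpha, is the longest of the 47 genes at 327622 bp, against 190005 bp for Cdk6, and had 4 regions, of which 1 was called throughout. Per 10 kb of gene and flanks, Cdk6 had 0.71 regions called throughout, close to the median of 0.62 over the 47 genes. Ccnd3 (cyclin D3) had 12 regions, and 9 were shared by the 4 libraries. Its widest gene-end region lay 243 bp beyond the far end, next to the ribosome assembly gene Bysl, with 374 and 339 bp in WT and 405 and 234 bp in KO. A region of 618 bp covers the internal start of Ccnd3 and ranked at 77.4 and 65.7 in WT and 80.2 and 74.1 in KO. Ccnd1, with its weak ends, had 5 regions called throughout, the nearest 1499 bp outside the gene at percentiles from 49.1 to 68.7. Ccnd2 had 3, the nearest of which, 1976 bp inside the gene, was broad and weak, with 888 and 860 bp in WT and 827 and 920 bp in KO at percentiles from 1.46 to 3.64. Cdk4, the other partner of the D-type cyclins, had 4 regions, all called throughout, and a gene-end region at percentiles from 69.6 to 80.2. These 5 genes together held 36 of the 147 regions called in all 4 libraries.

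**Figure D3:**
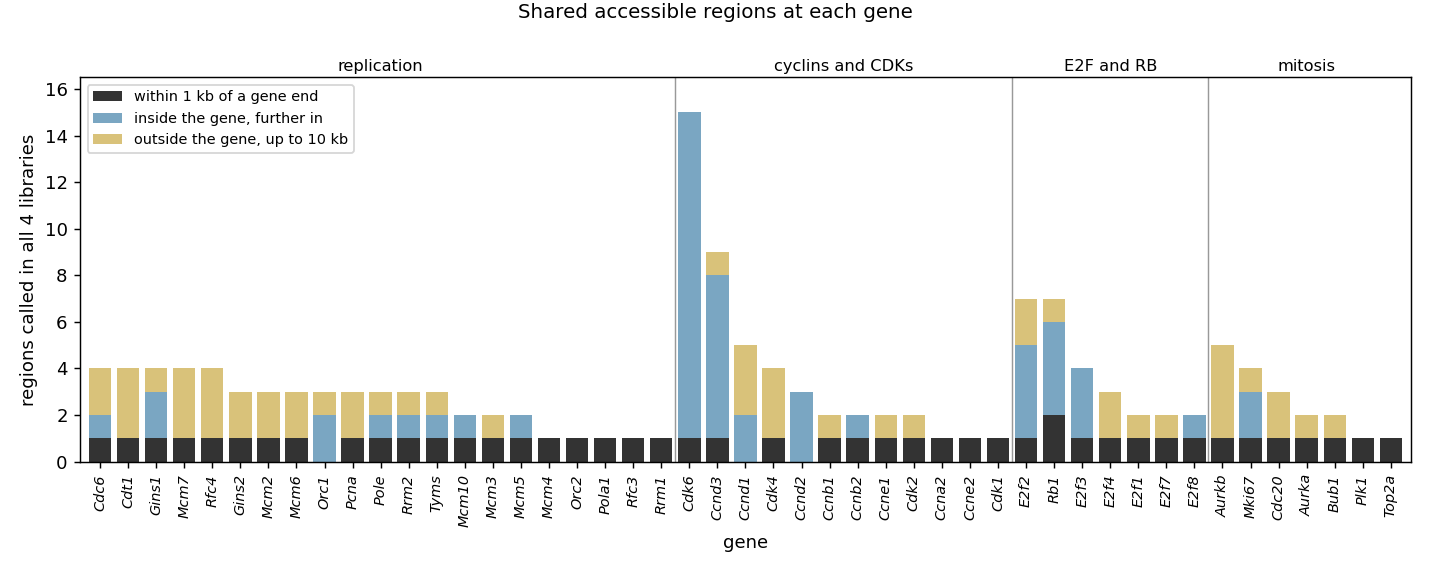
Number of regions called in all 4 libraries (vertical axis) at each of the 47 genes, split into those within 1 kb of an end of that gene, those further inside the gene and those outside it up to 10 kb away. Cdk6 reaches 15 and Ccnd3 reaches 9, while 10 genes have only gene-end regions.

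Of the 102 regions called throughout that lay away from the ends of their own gene, 38 belonged to Cdk6, Ccnd3, E2f2, Ccnd1 and Rb1. Replication genes had at most 3 each. Cdk6, Ccnd3 and Rb1 are long, and per 10 kb of gene and flanks their regions called throughout numbered 0.71, 0.79 and 0.46, below Cdt1 with 1.59, Mcm7 with 1.45 and Cdc6 with 1.10. E2f2 and Ccnd1 stood at 1.60 and 1.67 on that scale, and Aurkb was highest at 1.92. These counts can include regions at ends of neighbouring genes, such as Zfp113 and Cops6 near Mcm7 and Aprt and Galns near Cdt1. E2f2, an activating E2F factor, had 11 regions, and 7 were shared by the 4 libraries. Its own gene-end region over the start was the weakest of the 44, at 33.2 and 20.4 in WT and 2.03 and 6.92 in KO, with 515 and 567 bp in WT and 632 and 189 bp in KO. Widths overlapped between the genotypes and ranks did not. Ranks lay apart at other gene-end regions too, with KO lower at Mcm2 and KO higher at Pcna and Cdc20, so this was not particular to E2f2. The share of all regions with such ranks was not counted, and the lists differ in length. A change in rank was not tested. A region 10224 bp inside E2f2 ranked higher, at 82.0 and 90.1 in WT and 76.9 and 67.8 in KO. E2f4, the repressive E2F of resting cells, was at the other end of its family with 96.0 and 92.6 in WT and 97.8 and 97.0 in KO. Its region covered 338 and 674 bp in WT and 279 and 340 bp in KO, and also lay within 1 kb of an end of Exoc3l.

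E2f1 and E2f8 had wide, weaker gene-end regions. E2f8, an atypical repressor E2F, covered 1672 and 1830 bp in WT and 1835 and 1794 bp in KO, at 35.8 and 43.4 in WT and 48.4 and 36.9 in KO. E2f1 covered 1338 and 1302 bp in WT and 1459 and 1490 bp in KO. Both KO values were above both WT values there, with a log2 difference of 0.17 (limma 95% interval -0.29 to 0.63). Centred widths lay apart with KO wider at 13.6% of the 147 shared regions of the cycle genes and at 16.8% of all 53062. Rb1, which encodes the RB protein, had 2 regions called throughout at its higher-coordinate end and 4 inside the gene, of which 1 ranked at 99.4 and 91.5 in WT and 93.0 and 89.5 in KO.

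Mitotic genes had high or middle ranks. Aurka (the spindle kinase Aurora A), Cdc20 (an activator of the anaphase-promoting complex) and Top2a (topoisomerase II alpha) had mean percentiles of 96.8, 95.4 and 94.3. The Aurka region also lay within 1 kb of an end of Cstf1. Plk1, a mitotic kinase, followed at 86.7 with a region of 475 and 588 bp in WT and 450 and 678 bp in KO. Bub1, a spindle checkpoint kinase, covered 1522 and 1617 bp in WT and 1566 and 1547 bp in KO, and Mki67, the proliferation marker Ki-67, covered 1112 and 1153 bp in WT and 1169 and 1448 bp in KO. Both ranked between 40.3 and 62.8. Aurkb (Aurora B) was narrow without ranking high, with 510 and 630 bp in WT and 553 and 576 bp in KO at percentiles from 49.6 to 59.5.

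Few regions of the cycle genes were called in 1 genotype only. Of the 212 regions, 147 (69.3%) were called in all 4 libraries, where 60.5% of the 66561 regions within 10 kb of any protein-coding gene were. KO-only regions, called in both KO and neither WT library, numbered 2 (0.943%, background 1.40%), and WT-only regions 3 (1.42%, background 1.87%). Another 11 (5.19%) were called in 1 library of each genotype, beside 5.89% over all regions near genes. These 3 shares lie near or below the background. Leaving out a library relaxes the rule, and KO-only counts then ran from 6 to 14, the highest without KO replicate 1, and WT-only counts from 7 to 9, the highest without WT replicate 2. The share over all regions under the relaxed rule was not counted, so these counts have no background beside them.

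The KO-only regions lay outside Mcm2 and Cdk6. The former, at chr6:88879540-88879754 and 3720 bp from the gene, was covered over 108 and 215 bp in the KO lists at percentiles 14.5 and 30.4. The latter, at chr5:3538660-3538998 and 7652 bp from Cdk6, was covered over 103 and 282 bp at 12.98 and 3.13. The WT-only regions lay at Pole, Ccna2 and Mki67. The one 8183 bp outside Pole, the catalytic subunit of DNA polymerase epsilon, was covered over 181 and 125 bp in the WT lists at percentiles 41.9 and 26.4. At Ccna2 a region of 137 and 151 bp ranked at 35.8 and 49.5, lying 525 bp inside one end and near an end of Exosc9 too. At Mki67 the region lay over the 3′ end of the gene, with 262 and 451 bp at 14.8 and 4.49. None of the 5 was the main gene-end region, which at Mcm2, Cdk6, Pole, Ccna2 and Mki67 was called in all 4 libraries.

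Widths at the 147 shared regions were compared between genotypes with limma, fitted to the log2 of covered bases over all 53062 regions called in every library, each library centred on its median. No region passed an adjusted p of 0.05, among the 147 (0 wider in KO and 0 wider in WT) or over all (0%, Benjamini-Hochberg adjustment over 53062 regions). At an unadjusted p of at most 0.05, 3 of the 147 were wider in KO and 2 in WT, beside 2.81% and 3.10% over all regions, or 5.91% in either direction. The median KO minus WT difference was 0.02 over the 147 and 0.01 over all, and 84 of the 147 were above 0. The half-width of the 95% interval of a region had a median of 0.57 on the log2 scale, so differences smaller than that could not be resolved. That interval is not adjusted for the number of regions. Larger estimates, such as 1.34 near Cdc6 and -0.999 in Mcm10, did not pass the adjusted threshold either. By role the medians were 0.01 for replication, 0.03 for cyclins and CDKs, 0.02 for E2F and RB and under 0.01 (0.0038) for mitotic genes. The centred widths did not overlap between genotypes at 20 regions with KO wider and 17 with WT wider, or 13.6% and 11.6%, against backgrounds of 16.8% and 15.5%.

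**Figure D4:**
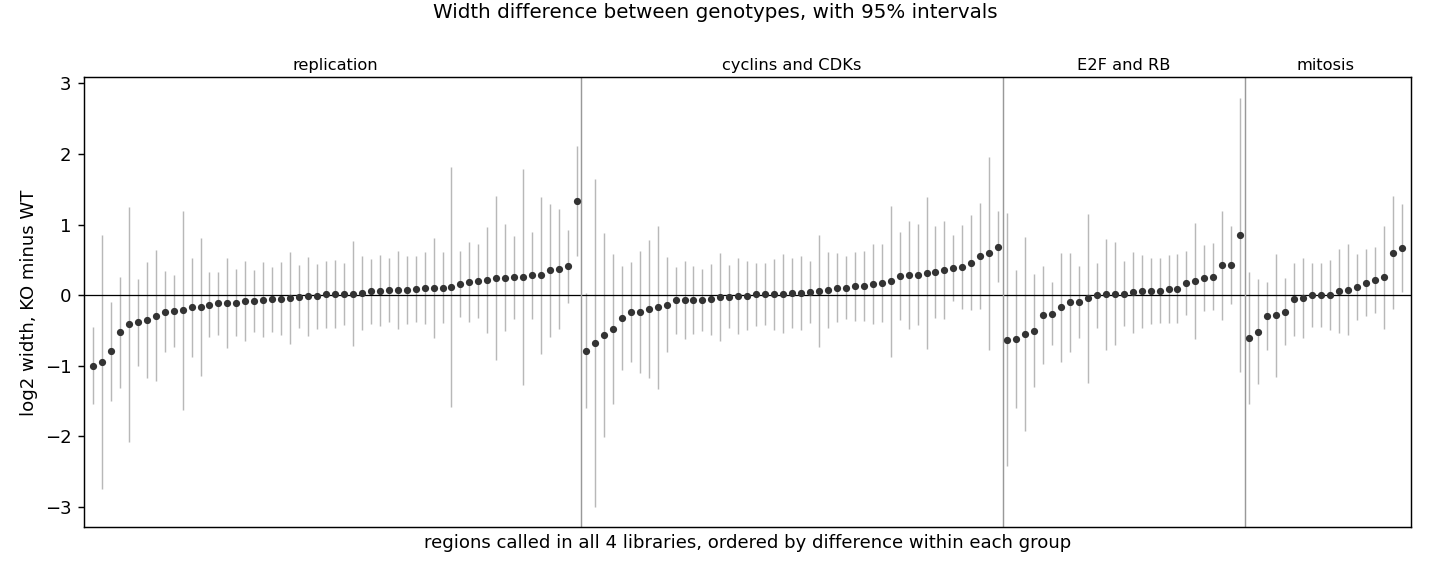
KO minus WT difference in log2 width (vertical axis) for the 147 regions called in all 4 libraries, ordered within each role. Points are limma estimates from 2 libraries per genotype and bars are 95% intervals not adjusted for the number of regions. Estimates run from -0.999 at Mcm10 to 1.34 at Cdc6, and most bars cross 0.

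The widest differences were at small regions away from promoters. A region 6823 bp outside Cdc6, at chr11:98900502-98900886, covered 150 and 109 bp in WT and 357 and 287 bp in KO, a log2 difference of 1.34 (95% interval 0.56 to 2.11, limma adjusted p = 0.628). A region inside Mcm10, at chr2:4999030-4999321, covered 292 and 257 bp in WT and 141 and 131 bp in KO, a difference of -0.999 (-1.54 to -0.46, limma adjusted p = 0.614). In both the KO libraries lay on one side of the WT libraries. The main gene-end regions of Cdc6 and Mcm10 did not show this. Cdc6, a helicase loader, had 525 and 513 bp in WT and 497 and 518 bp in KO, and Mcm10 had 1206 and 490 bp in WT and 531 and 1277 bp in KO.

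At gene ends the largest estimates were at Cdk6, with 0.69 (0.19 to 1.19, limma adjusted p = 0.722) from the widths given above, and at Ccnb1, with -0.79 (-1.61 to 0.03, limma adjusted p = 0.871). The Ccnb1 region covered 533 and 938 bp in WT and 385 and 429 bp in KO. Leaving out 1 library at a time, the Cdk6 estimate ran from 0.40 (without KO replicate 2) to 0.79, and that of Ccnb1 from -1.16 (without WT replicate 1) to -0.41 (without WT replicate 2). Over the 44 main gene-end regions the median difference was 0.04, with 27 above 0. Among other regions named for their estimates, 1 near Gins2 stood at -0.80 and 1 near Mki67, 9134 bp outside the gene, at 0.67. For the regions near Rrm2 (-0.95), Aurkb (0.60) and E2f7 (0.85), and for that at chr5:3381370-3382304 inside Cdk6 (-0.68), the 95% interval included 0. At E2f7 a single library was set apart, with 129 and 177 bp in WT, 129 bp in KO replicate 1 and 568 bp in KO replicate 2. Without KO replicate 2 its difference was -0.14. The Cdk6 difference was likewise 0.29 without KO replicate 2 and 0.08 without WT replicate 2. At Rrm2 WT replicate 2 was set apart, with 189 and 717 bp in WT and 201 and 177 bp in KO, and the difference was -0.02 without it and -1.88 without WT replicate 1. Single libraries also moved the estimates at Aurkb, to 0.24 without WT replicate 2, 0.97 without WT replicate 1 and 1.27 without KO replicate 2, at Gins2, to -0.51 without WT replicate 2, and at Mki67, to 0.43 without KO replicate 1.

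Other genes of the same pathway, 94 in number, were mostly called at an end as well. A gene-end region was called in every library at 36 of 40 further replication genes, 38 of 38 further mitotic genes and 16 of 16 further E2F, RB and cell cycle transcription genes, again beside 54.7% over all genes. The exceptions were Orc4, Prim1 (the primase subunit), Rfc1 and Tk1 (thymidine kinase). These genes had 391 regions, and 260 of them were shared by the 4 libraries. The shares were 63.3% for replication, 66.2% for mitotic and 75.8% for E2F, RB and transcription genes, beside 60.5% over all regions near genes. KO-only calls numbered 4, at Cdc7, Prim2 and Ticrr. They were 2.22% of the regions of the replication genes and 0% of the others, beside a background of 1.40%. WT-only calls numbered 8, at Prim2, Rfc1, Dut, Chaf1b, Clspn, Kif23 and Tfdp1. In the same order of roles they were 3.33%, 0.69% and 1.52% of regions, beside 1.87%.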

How the data were processed

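The authors deposited 4 broad peak lists, 1 per library. The submitters' processing notes name fastp, Bowtie2, MACS2 and the build mm10, with no order or version, and no peak filter is given. The deposited columns are a score, a fold ratio (by the layout's convention enrichment averaged over the peak), −log10 p and −log10 q, whose p-values and q-values are the authors'. Fold was used only as a rank within its own list.

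Peaks were merged across lists at 1 bp overlap with Python 3.11.15. Genes and promoters were placed with RefSeq tables of GRCm38.p6. Where a library had several peaks in a region, their bases were summed and the highest percentile kept. The widest gene-end region was chosen among those called in most libraries. Widths were fitted with limma 3.58.1 in R 4.3.3 (genotype only, empirical Bayes), after the fit was tested on simulated data. The members, lists and the rule for named genes (exceptions, genotype-only regions, extremes of width, rank and count) were chosen with earlier results of these data known, and the 7 genes whose sequences are printed were chosen after their values were seen, as were members named to complete a role. Alternatives are given in the closing section.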

Additional observations from a re-analysis of the deposited data

How the results depend on the processing

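Alternatives used peaks with q of at most 0.01, the lists without their weakest 25%, merging at 100 bp overlap, other distances and windows, other scalings, a replicate block and each library left out; a variance trend in limma was added after the data were seen. Genes with a gene-end region in every library numbered 43 to 46, and 36 of 36 by annotated starts. The shares over all genes under these alternatives were not counted. KO-only regions numbered 1 with merging at 100 bp, 0 inside genes only and 7 within 50 kb, where WT-only regions numbered 6. Leaving out a library gave 6 to 14 KO-only and 7 to 9 WT-only regions. No background was counted for the 50 kb window or with a library left out. The width difference between roles ran from -0.42 (without WT replicate 1) to -0.28 with a library left out, and was -0.27 without the weakest 25% of peaks and -0.18 with E2F and RB genes added; the rank difference ran from 10.3 to 13.2 points without a library and was 17.4 at a gene-end distance of 2 kb. The limma count stayed 0 in each direction in every alternative run, leave-one-out included (0 to 0). Of 121 width values for the 10 regions named, 3 reversed. The Cdk6 region at chr5:3381370-3382304 gave 0.08 without WT replicate 2 and ran from -1.64 to 0.29 without a library, and the E2f7 region ran from -0.14 (without KO replicate 2) to 1.86; the lone library is then assumed to vary like the other genotype. With the replicate block the counts were also 0. The labels give same-numbered libraries only a number in common. The correlation of their width deviations was 0.0105, which cannot show whether they shared a preparation. Depth is unknown, so a missing call does not show closed chromatin.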
